A study of Mus musculus with 16 samples.

Results

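Retinoic acid is made from vitamin A, acts through nuclear receptors and is broken down again inside the cells that use it. The genes described here are 9 members of that pathway: the retinoic acid receptors Rara, Rarb and Rarg, their partners Rxra and Rxrb, the synthesis enzyme Aldh1a2, the retinaldehyde reductase Dhrs3, the breakdown enzyme Cyp26b1, and the response gene Tgm2. The readout is 5-hydroxymethylcytosine (5hmC), which TET enzymes make by oxidising methylated cytosine, in mouse CD4 T cells. Members were all regions of the deposited count table whose nearest transcript carries one of these symbols, which gave 78 of 177720 regions and 9 of 15543 symbols. After the filter on low counts 57 of the 78 regions were tested, among 135412 regions in all, and all 9 gene sums were tested among 14951.

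All 4 groups carry the Foxp3-eGFP reporter allele, in C57BL/6 mice aged 5 to 6 weeks whose spleens and lymph nodes gave the cells. Induced regulatory T cells (iTreg) were differentiated from naive CD4+ cells either with TGFβ plus retinoic acid and vitamin C (RA+VitC iTreg) or with TGFβ alone (TGFβ iTreg). Treg were sorted as CD4+eGFP+ and naive cells as CD4+eGFP-CD25-CD62LhiCD44lo. No group had only RA or only VitC, so their effects cannot be told apart, and the labels state no sort of the iTreg. There were 2 pull-downs and 2 inputs per group, told apart in the labels by the suffixes 3-20 and 3-5 for iTreg, whose meaning is not stated, and by 1 and 2 for Treg and naive cells. No label says whether they are separate mice or cultures, and the p-values therefore rest on a spread between libraries that may be technical. By CMS-IP, bisulfite turns 5hmC into a form that an antiserum pulls down. Levels are CPM, reads scaled to the library's reads in regions, so each is relative within its library and gives no absolute amount of 5hmC. A level in a mixed population also cannot separate fewer cells with the mark from less of the mark per cell.

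All-trans retinoic acid binds RARA, RARB or RARG, which sit on DNA as pairs with an RXR, exchange corepressors for coactivators when the ligand binds, and turn on target genes. Retinol is oxidised to retinaldehyde and then, by ALDH1A enzymes, to retinoic acid. DHRS3 runs the first step backwards and CYP26 enzymes hydroxylate retinoic acid, and both are known as genes that the signal itself induces. In the gut, dendritic cells that carry ALDH1A2 supply retinoic acid to T cells, where it favours Foxp3 together with TGFβ and the homing receptors Ccr9 and α4β7. VitC is a cofactor that raises the activity of TET enzymes.

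The RefSeq promoter table used here (GRCm38.p6, from 250 bases before to 50 after a start) gave 16 promoters for 8 of the 9 genes, and Tgm2 was not matched. They are shown for 4 genes because their regions bear on the results below: Rarb, whose promoter carries the receptor's own binding element, Rxra and Dhrs3, each with a 5hmC region that the count table annotates as promoter and that ends before the start, and Cyp26b1, whose regions lay away from its start. The search was for direct repeats of the hexamers AGGTCA or GGGTCA, or the related hexamers AGTTCA or GGTTCA, in any pairing with 1, 2 or 5 bases between them, on both strands. Of the 16 promoters only the Rarb promoter held such a repeat, with 5 bases between the hexamers, at bases -53 to -37 from the start on the plus strand of the printed sequence, where capitals mark the hexamers. A repeat with that spacing was found in 0.0974% of all 32851 promoters in the RefSeq table, and 1 of the 3 spacings in 0.588%. In the sequences of the other genes capitals mark CpG, the main site of cytosine methylation and so of 5hmC. The promoters shown hold 55 CpG in Rxra, 21 in Dhrs3, 17 in Rarb and 9 in Cyp26b1, against a median of 7 over all promoters. For genes with several promoters the one shown is the first listed, and the others held 1 CpG in Rxra and 10 and 9 in Dhrs3. The files' regions are on mm9, so no region was placed on these sequences by coordinates, and the promoter regions of Rxra and Dhrs3, which end at -540 and -594 bp from the start in the count table, lie outside such a window.
Rarb, chr14:16575427-16575726, minus strand: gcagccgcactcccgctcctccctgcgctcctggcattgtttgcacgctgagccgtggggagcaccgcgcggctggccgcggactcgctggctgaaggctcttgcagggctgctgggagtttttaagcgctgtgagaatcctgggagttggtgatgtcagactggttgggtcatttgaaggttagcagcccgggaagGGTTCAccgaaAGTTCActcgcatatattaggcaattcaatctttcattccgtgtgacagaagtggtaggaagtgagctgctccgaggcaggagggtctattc
Rxra, chr2:27676951-27677250, plus strand: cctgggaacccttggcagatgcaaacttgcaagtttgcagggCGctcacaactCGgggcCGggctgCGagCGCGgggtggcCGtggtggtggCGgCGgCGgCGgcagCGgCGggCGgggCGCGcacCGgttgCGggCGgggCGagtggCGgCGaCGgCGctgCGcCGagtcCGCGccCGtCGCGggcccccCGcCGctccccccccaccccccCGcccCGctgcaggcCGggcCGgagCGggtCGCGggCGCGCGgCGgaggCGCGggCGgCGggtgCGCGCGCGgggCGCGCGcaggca
Dhrs3, chr4:144892577-144892876, plus strand: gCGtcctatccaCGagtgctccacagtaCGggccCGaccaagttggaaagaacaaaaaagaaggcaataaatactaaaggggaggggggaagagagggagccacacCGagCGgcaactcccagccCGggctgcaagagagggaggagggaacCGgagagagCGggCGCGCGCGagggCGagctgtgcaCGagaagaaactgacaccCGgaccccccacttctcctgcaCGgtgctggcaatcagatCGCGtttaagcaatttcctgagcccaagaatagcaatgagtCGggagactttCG
Cyp26b1, chr6:84593761-84594060, minus strand: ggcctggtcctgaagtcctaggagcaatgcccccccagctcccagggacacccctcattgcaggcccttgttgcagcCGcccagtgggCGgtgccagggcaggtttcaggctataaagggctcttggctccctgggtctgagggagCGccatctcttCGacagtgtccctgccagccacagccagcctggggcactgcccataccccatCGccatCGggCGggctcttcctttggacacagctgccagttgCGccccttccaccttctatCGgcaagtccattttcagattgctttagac

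RA+VitC pull-downs held 3996442 and 3828487 reads in regions and TGFβ pull-downs 1648804 and 2114056, against 7664194 to 9731897 in Treg and naive cells. The inputs held 1028822 to 1563165 reads in regions. The TGFβ pull-downs thus had the fewest reads of the pull-downs. Fits at equal depth are among the alternatives given below, and the part of depth in each difference was not tested otherwise. A count of 0 allows up to 3 reads, or 0.879 and 0.897 CPM in RA+VitC iTreg, 1.79 and 1.5 CPM in TGFβ iTreg and 0.308 to 0.385 CPM in the sorted cells, for counting error only. Among markers of other cells, the summed 5hmC of 6 myeloid and dendritic cell genes was 177 and 200 CPM in RA+VitC iTreg, 293 and 295 in TGFβ iTreg, 295 and 299 in Treg, against 404 and 407 in naive cells, with 4 of 6 called lower in RA+VitC than in TGFβ iTreg. The 4 CD8 and NK cell genes summed to 102 and 109 CPM in RA+VitC iTreg, 133 and 130 in TGFβ iTreg, 245 and 235 in Treg, against 294 and 297 in naive cells, with 2 of 4 called lower in RA+VitC than in TGFβ iTreg. The 4 B cell genes summed to 112 to 132 CPM in every group, with 1 called higher and 1 lower in RA+VitC than in TGFβ iTreg. Of 5 T cell genes 2 were called higher in RA+VitC than in TGFβ iTreg, with sums of 834 and 806 CPM in RA+VitC iTreg, 558 and 734 in TGFβ iTreg, 715 and 748 in Treg, against 891 and 863 in naive cells. The 4 Treg markers, all called higher in RA+VitC than in TGFβ iTreg, summed to 3180 and 3030 CPM in RA+VitC iTreg, 2530 and 2830 in TGFβ iTreg, 2120 and 2130 in Treg, against 743 and 728 in naive cells. In that comparison 12.4% of all genes tested were higher and 10.7% lower. No marker gene was at 0, and whether 5hmC at these genes reflects other cells was not tested.

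Between RA+VitC and TGFβ iTreg, 3 of the 9 gene sums were higher in RA+VitC iTreg, 3 were lower and 3 passed neither way. Those higher were Dhrs3, Cyp26b1 and Tgm2, and those lower were Rarg, Rxra and Aldh1a2, while Rara, Rarb and Rxrb were not called. Calls are at a Benjamini-Hochberg adjusted p under 0.05 in edgeR's quasi-likelihood test, at which 12.4% of all genes tested were higher and 10.7% lower. Region by region, 5 of 57 tested member regions were higher and 4 lower, against 4.60% and 1.98% of all tested regions. The median log2 fold change was -0.07 over member regions and 0.02 over all regions, and 0.09 over member gene sums and 0 over all genes. Scaling by library size in place of TMM lowered the median of all regions to -0.17 and of all genes to -0.11, and gave 3 higher and 6 lower member regions, with 43.2% of all region calls higher in place of 69.9%. In the inputs 0 of 44917 regions and 0 of 12824 genes were called in edgeR's test, and so 0 of the 8 member gene sums tested there. An unadjusted p under 0.05 in that test was found for 2205 regions and 654 genes, with 1 member, Aldh1a2 (0.045), among the genes. Cyp26b1 was not tested in the inputs. With the inputs as background in the fit, Dhrs3 kept its call (log2 1.2, adjusted p = 5.8e-05), and the other 5 called gene sums kept their sign at adjusted p of 0.054 to 0.32.

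**Figure D1:**
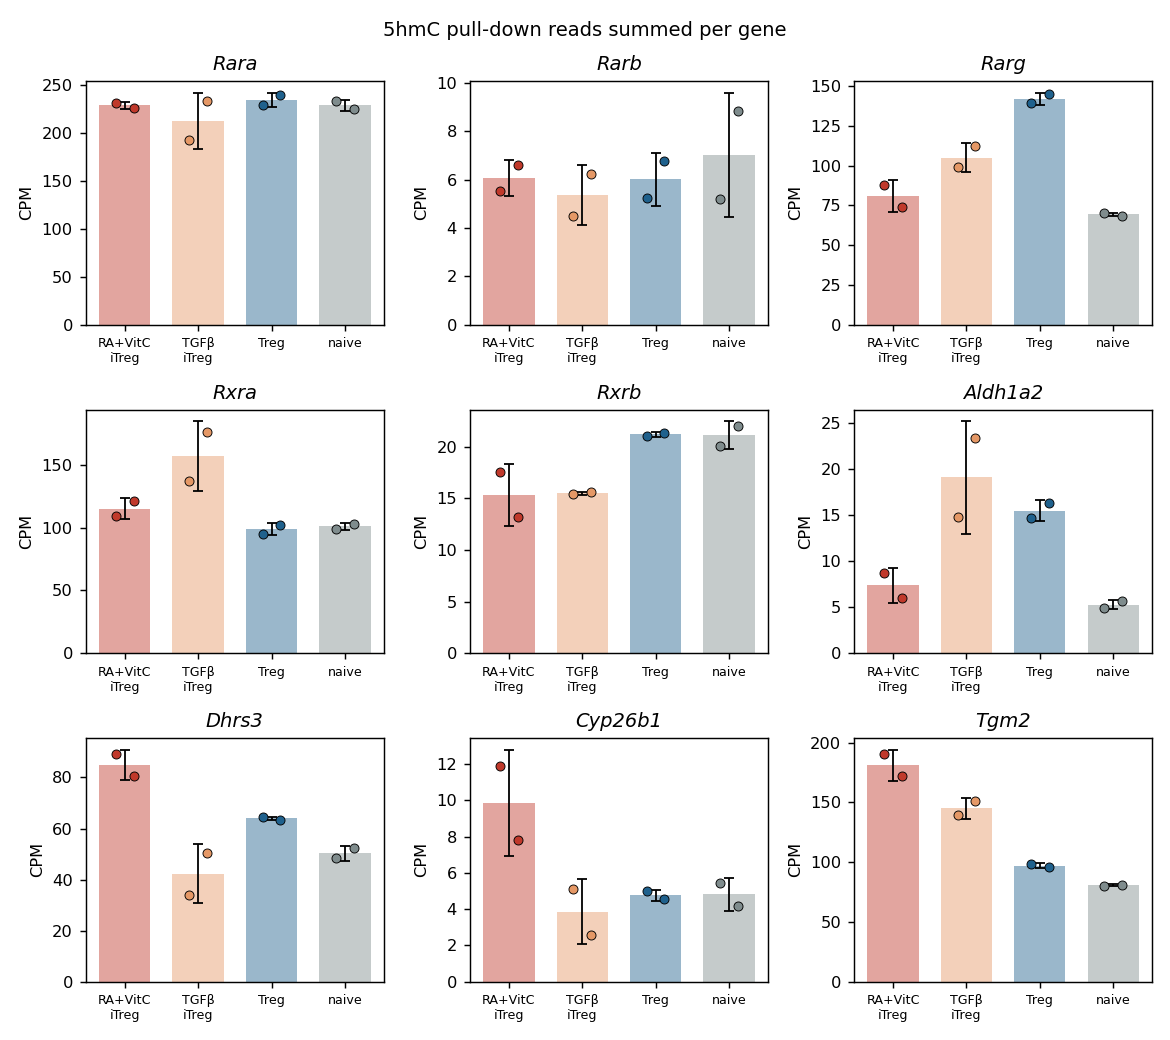
5hmC reads summed per gene, in CPM of the pull-down library, for the 9 genes in RA+VitC iTreg, TGFβ iTreg, Treg and naive cells. Points are the 2 libraries of a group, bars their mean and whiskers the SD. Dhrs3, Cyp26b1 and Tgm2 have both RA+VitC libraries above both TGFβ libraries, and Rarg, Rxra and Aldh1a2 have both below.

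**Figure D2:**
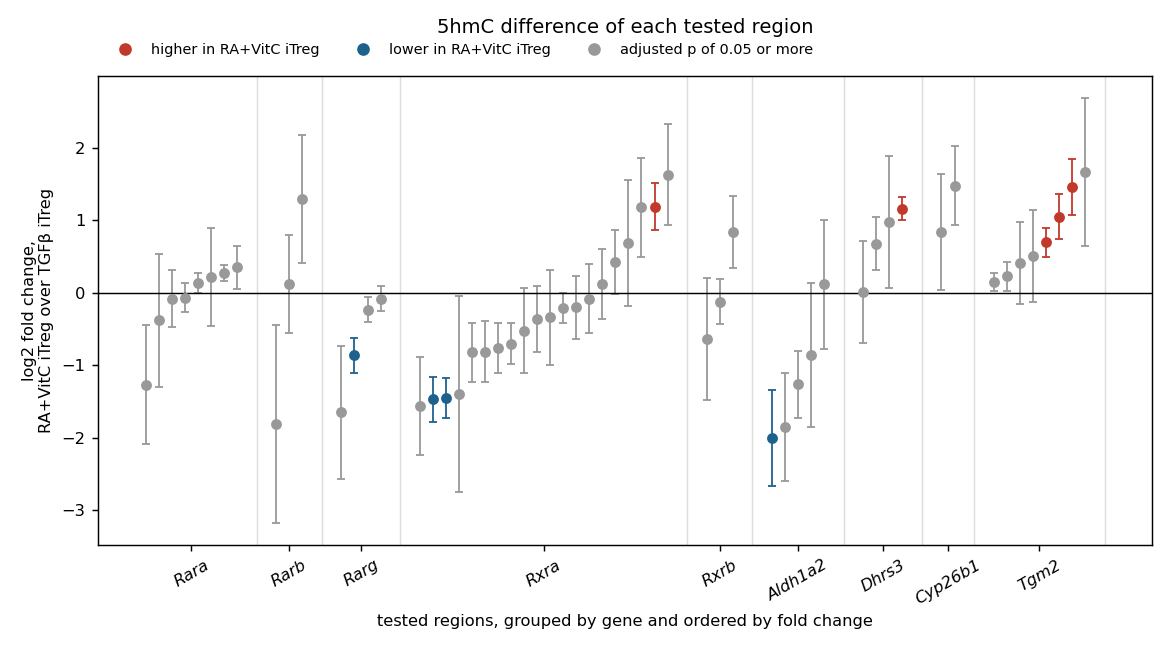
Log2 fold change of RA+VitC iTreg over TGFβ iTreg for each of the 57 tested regions, grouped by gene and ordered within it, with the standard error as whiskers. The 5 higher regions belong to Rxra, Dhrs3 and Tgm2 and the 4 lower ones to Rarg, Rxra and Aldh1a2. All 8 Tgm2 regions lie above 0.

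Rara, the receptor through which most retinoic acid signalling in T cells runs, had nearly the same summed level in every group. Its 8 regions summed to 232 and 226 CPM in RA+VitC iTreg, 193 and 234 in TGFβ iTreg, 230 and 240 in Treg, against 234 and 225. in naive cells Both libraries of RA+VitC iTreg lay within the range of TGFβ iTreg, and none of the 6 pairs was called. Some alternatives did call a pair: without its 3-5 library TGFβ iTreg was lower than naive cells (-0.25, adjusted p = 0.032) and Treg (-0.29, adjusted p = 0.012), and with library size scaling RA+VitC iTreg was lower than naive cells (-0.15, adjusted p = 0.013) and Treg (-0.2, adjusted p = 0.0014), and TGFβ iTreg lower than Treg (-0.18, adjusted p = 0.022). The log2 fold change of RA+VitC over TGFβ iTreg was 0.09 (SE 0.08, 95% interval -0.06 to 0.24, adjusted p = 0.45). Per length this is 6.97 CPM per kb in RA+VitC iTreg, 6.5 in TGFβ iTreg, 7.15 in Treg and 6.97 in naive cells, and the inputs held 71.5 to 101 CPM.

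The even sum of Rara is made of regions that differ among the groups in opposite directions. A region of 2250 bp over an internal promoter and 5′ UTR (chr11:98822253-98824502, mm9 as for all regions) had 29.9 and 20.3 CPM in RA+VitC iTreg, 23.2 and 28.9 in TGFβ iTreg, 12 and 11 in Treg, against 16 and 15.2. in naive cells Both iTreg groups stood above both sorted groups. It was higher in RA+VitC iTreg than in naive cells (log2 0.69, SE 0.16, adjusted p = 7.3e-05), higher also in TGFβ iTreg against naive cells (0.76, SE 0.19, adjusted p = 7e-04), and lower in Treg than in naive cells (-0.44, SE 0.15, adjusted p = 0.019). The 11738 bp region that runs to the 3′ end (chr11:98825428-98837165) ran the other way. It had 67.4 and 65.8 CPM in RA+VitC iTreg, 50.6 and 68.8 in TGFβ iTreg, 93.8 and 98.9 in Treg, against 79 and 79.8 in naive cells, lower in RA+VitC iTreg than in naive cells (-0.25, SE 0.1, adjusted p = 0.032) and higher in Treg than in naive cells (0.28, SE 0.08, adjusted p = 0.0039). The largest region (chr11:98807214-98820706, 13493 bp, 45% of the reads) had 114 and 117 CPM in RA+VitC iTreg and 85.2 and 104 in TGFβ iTreg, log2 0.28 (SE 0.11, adjusted p = 0.14), and 0.49 (adjusted p = 0.012) without the 3-5 library of TGFβ iTreg. The 2 remaining regions with the Rara promoter, upstream (chr11:98797138-98798389) and at the first start (chr11:98800138-98801359), had log2 values of -0.08 and 0.22 at adjusted p of 0.95 and 0.91.

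Rarb, a receptor whose gene is a standard target of retinoic acid, had few reads. Its 5 regions, all within the transcript and none annotated with its promoter, held 5.54 and 6.59 CPM in RA+VitC iTreg, 4.5 and 6.25 in TGFβ iTreg, 5.25 and 6.79 in Treg, against 5.2 and 8.84. in naive cells All groups overlap and these values rest on 7 to 83 reads per library. RA+VitC over TGFβ iTreg gave a log2 fold change of 0.15 (SE 0.42, 95% interval -0.68 to 0.98, adjusted p = 0.85). Only an intron region of 246 bp (chr14:17352145-17352390) differed between any groups at the threshold: it had 2.34 and 2.99 CPM in RA+VitC iTreg, 0 and 2 in TGFβ iTreg, 1.15 and 0.945 in Treg, against 0.128 and 0.411 in naive cells, higher in RA+VitC iTreg than in naive cells (log2 3.13, SE 0.78, adjusted p = 0.00031) but not called against TGFβ iTreg (log2 1.29, SE 0.88, adjusted p = 0.47). The region with the most reads (chr14:17265606-17266772) had a log2 of 0.12 (adjusted p = 0.96). The inputs held 3.84 to 15.3 CPM over these regions, and no region assigned to Rarb was annotated with the promoter that holds the element shown above.

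Rarg, a receptor with roles in skin and in hematopoietic stem cells, was lower in RA+VitC iTreg than in TGFβ iTreg and highest in Treg. Its 5 regions summed to 88 and 73.7 CPM in RA+VitC iTreg, 98.9 and 112 in TGFβ iTreg, 139 and 145 in Treg, against 70.1 and 68.6. in naive cells No library of RA+VitC iTreg reached any of TGFβ iTreg, and both lay far below Treg. RA+VitC over TGFβ iTreg gave a log2 fold change of -0.39 (SE 0.11, adjusted p = 0.0034), and all 4 tested regions had negative values. Treg exceeded naive cells by 1.04 (SE 0.07, adjusted p = 1.1e-29), TGFβ iTreg exceeded naive cells by 0.61 (SE 0.1, adjusted p = 6.4e-08) and RA+VitC iTreg by 0.22 (SE 0.09, adjusted p = 0.021), or by 0.09 (adjusted p = 0.54) without its 3-20 library and 0.2 (adjusted p = 0.1) without library 2 of naive cells. That last difference was also not called with library size scaling (0.07, adjusted p = 0.49), DESeq2 (0.23, adjusted p = 0.084), limma (0.17, adjusted p = 0.12), equal depth (0.12, adjusted p = 0.55) or the inputs as background (0.11, adjusted p = 0.7). The difference between RA+VitC and TGFβ iTreg lost its call without the 3-5 library of RA+VitC iTreg (-0.27, adjusted p = 0.12) or of TGFβ iTreg (-0.29, adjusted p = 0.18), and the inputs held 56.1 to 80.4 CPM.

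The called Rarg region was 5005 bp of intergenic sequence at -3539 bp from the nearest start (chr15:102091454-102096458, negative meaning upstream). It had 10.5 and 12.9 CPM in RA+VitC iTreg, 17.9 and 23.9 in TGFβ iTreg, 40.4 and 39.5 in Treg, against 15.1 and 15.7. in naive cells RA+VitC iTreg was lowest and Treg highest, with no overlap between these groups. Over TGFβ iTreg the log2 fold change was -0.86 (SE 0.24, adjusted p = 0.012), lost without the 3-20 library of RA+VitC iTreg (-0.68, adjusted p = 0.23) or the 3-5 library of TGFβ iTreg (-0.56, adjusted p = 0.47). Against Treg it was -1.77 (SE 0.16, adjusted p = 1.7e-25). The 10586 bp region over the promoter and 5′ UTR (chr15:102078789-102089374) had 36.9 and 32.6 CPM in RA+VitC iTreg, 36.3 and 44.4 in TGFβ iTreg, 60.1 and 63.3 in Treg, against 29.4 and 26.1 in naive cells, with a log2 of -0.23 over TGFβ iTreg (SE 0.17, adjusted p = 0.51). A 197 bp promoter region (chr15:102090268-102090464) had 30 reads over the 8 pull-downs and was not tested.

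Rxra, the common partner of the receptors and of other nuclear receptors, was lower in RA+VitC iTreg than in TGFβ iTreg, where it was highest. Its 31 regions summed to 109 and 121 CPM in RA+VitC iTreg, 137 and 176 in TGFβ iTreg, 95.2 and 102 in Treg, against 98.7 and 103. in naive cells TGFβ iTreg stood above all other libraries. The log2 fold change of RA+VitC over TGFβ iTreg was -0.46 (SE 0.09, adjusted p = 3.6e-05), and -0.25 (adjusted p = 0.16) without the 3-5 library of TGFβ iTreg. TGFβ iTreg exceeded naive cells by 0.65 (SE 0.09, adjusted p = 6.2e-11), RA+VitC iTreg exceeded them by 0.19 (SE 0.08, adjusted p = 0.025), and Treg differed from them by -0.03 (SE 0.07, adjusted p = 0.75). The value for RA+VitC iTreg against naive cells was 0.04 (adjusted p = 0.68) with library size scaling, 0.12 (adjusted p = 0.33) without its 3-5 library and 0.16 (adjusted p = 0.13) without library 1 of naive cells. The inputs held 76.8 to 94.6 CPM.

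Along Rxra the promoter region and 2 intron regions were called in opposite directions, while other intron regions had values of either sign. The promoter region of 1523 bp, at -540 bp from the start (chr2:27530658-27532180), had 12 and 14 CPM in RA+VitC iTreg, 3.57 and 7.48 in TGFβ iTreg, 11.6 and 14.1 in Treg, against 12.6 and 12.3. in naive cells TGFβ iTreg stood below the other 3 groups, whose values overlap. It was higher in RA+VitC than in TGFβ iTreg (log2 1.19, SE 0.33, adjusted p = 0.0098), and lower in TGFβ iTreg than in naive cells (-1.12, SE 0.31, adjusted p = 0.0022). Without the 3-5 library of RA+VitC iTreg it was 1.12 (adjusted p = 0.083) and without the 3-20 library of TGFβ iTreg 0.82 (adjusted p = 0.32).

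The called introns of Rxra lay from 13.55 to 27.52 kb into the transcript. The first (chr2:27546274-27547241, 968 bp) had 4.39 and 6.58 CPM in RA+VitC iTreg, 13.7 and 16.5 in TGFβ iTreg, 4.86 and 3.78 in Treg, against 4.49 and 3.19 in naive cells, a log2 of -1.47 (SE 0.31, adjusted p = 0.00016) for RA+VitC over TGFβ iTreg. The other (chr2:27558237-27560243, 2007 bp) had 5.57 and 8.97 CPM in RA+VitC iTreg, 15.5 and 23.4 in TGFβ iTreg, 4.47 and 5.32 in Treg, against 2.95 and 6.06 in naive cells, a log2 of -1.45 (SE 0.27, adjusted p = 1.2e-05). In both, TGFβ iTreg was above every other library. Without the 3-5 library of TGFβ iTreg the values were -1.27 (adjusted p = 0.063) and -1.04 (adjusted p = 0.12). The intron region between them with the most reads (chr2:27548080-27551879, 3800 bp) overlapped between the cultured groups and stood above the sorted ones, with 22 and 19.4 CPM in RA+VitC iTreg and 22 and 25.4 in TGFβ iTreg (log2 -0.21, SE 0.21, adjusted p = 0.67), against 9.84 and 12.2 in Treg, against 6.41 and 10.3. in naive cells Of the 20 tested Rxra regions 6 had positive and 14 negative values against TGFβ iTreg.

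**Figure D3:**
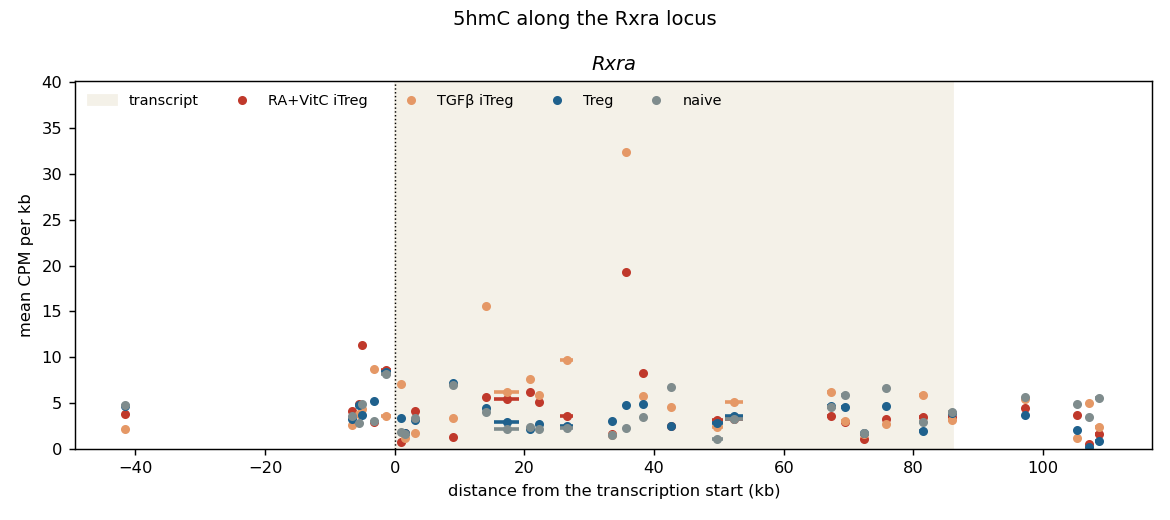
Mean CPM per kb of each of the 31 regions assigned to Rxra against the distance from its transcription start in kb, with the transcript shaded. Points are group means of 2 libraries and horizontal bars show a region's width. TGFβ iTreg lies lowest at the promoter region just left of 0 and highest in the called introns at 13.55 to 14.52 and 25.52 to 27.52 kb, and narrow regions such as the highest point rest on few reads.

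Rxrb, another partner receptor, had 3 regions and no call between the cultured groups. They summed to 17.5 and 13.2 CPM in RA+VitC iTreg, 15.4 and 15.6 in TGFβ iTreg, 21 and 21.3 in Treg, against 20.1 and 22. in naive cells The cultured groups overlap and lie below the sorted ones. The log2 fold change was -0.02 for RA+VitC over TGFβ iTreg (SE 0.25, 95% interval -0.5 to 0.47, adjusted p = 0.98) and -0.46 for RA+VitC iTreg over naive cells (SE 0.16, adjusted p = 0.012), the second lost without the 3-5 library of RA+VitC iTreg (-0.27, adjusted p = 0.29) or library 2 of naive cells (-0.39, adjusted p = 0.085). The region over its 5′ UTR (chr17:34169599-34171821) had 10.8 and 8.07 CPM in RA+VitC iTreg and 8.34 and 12 in TGFβ iTreg (log2 -0.12, adjusted p = 0.89). The third (chr17:34175321-34177315), whose nearest start is that of Col11a2, had 4.98 and 4.78 CPM in RA+VitC iTreg, 3.57 and 2 in TGFβ iTreg, 7.28 and 7.91 in Treg, against 6.54 and 6.58 in naive cells (log2 0.84 over TGFβ iTreg, SE 0.5, adjusted p = 0.38).

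Aldh1a2, which oxidises retinaldehyde to retinoic acid, was lower in RA+VitC than in TGFβ iTreg, and Treg carried more than naive cells. Its 6 regions summed to 8.74 and 5.99 CPM in RA+VitC iTreg, 14.8 and 23.4 in TGFβ iTreg, 14.7 and 16.3 in Treg, against 4.93 and 5.65 in naive cells. RA+VitC iTreg and naive cells were low, TGFβ iTreg and Treg high, and these 2 pairs do not overlap. The inputs held 21.8 and 26.5 CPM in Treg and 17 and 26.9 in naive cells. In every group each pull-down had fewer CPM than its own input, though pull-downs and inputs are scaled differently. RA+VitC over TGFβ iTreg was -1.4 on the log2 scale (SE 0.28, adjusted p = 2.4e-05), 2.64-fold lower, from 30 and 20 reads against 23 and 45. TGFβ iTreg exceeded naive cells by 1.87 (SE 0.25, adjusted p = 2.8e-10) and Treg exceeded them by 1.54 (SE 0.18, adjusted p = 1.5e-12). Without the 3-5 library of TGFβ iTreg the first value was -1 (adjusted p = 0.061), and in the inputs, with 16.5 and 12.3 CPM in RA+VitC iTreg and 18.1 and 26 in TGFβ iTreg, it was -0.64 (SE 0.32, unadjusted p = 0.045, adjusted p = 0.96).

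In both iTreg groups and Treg the 5hmC of Aldh1a2 came mostly from 4 intergenic regions upstream of its start, and its transcript held only 2. In naive cells the upstream and the transcript regions held similar numbers of reads. The called region of 248 bp at -13167 bp from the start (chr9:71050181-71050428) had 1.46 and 1.2 CPM in RA+VitC iTreg, 4.17 and 6.49 in TGFβ iTreg, 0.128 and 0.354 in Treg, against 1.15 and 1.23. in naive cells TGFβ iTreg alone was high there, and Treg was the lowest group. The log2 for RA+VitC over TGFβ iTreg was -2 (SE 0.66, adjusted p = 0.04), and leaving out any 1 of the 4 cultured libraries lost the call, with values of -2.24 to -1.58. The region with the most reads (chr9:71046401-71047578) had 3.22 and 2.39 CPM in RA+VitC iTreg, 4.17 and 8.98 in TGFβ iTreg, 3.45 and 3.07 in Treg, against 0.385 and 1.03 in naive cells (log2 -1.26 over TGFβ iTreg, SE 0.46, adjusted p = 0.074, and -1.64 at adjusted p = 0.043 without the 3-20 library of TGFβ iTreg). The region at -14495 bp (chr9:71048429-71049100) had its highest level in Treg instead, with 2.05 and 0.299 CPM in RA+VitC iTreg, 0.596 and 1.5 in TGFβ iTreg, 4.86 and 4.96 in Treg, against 0.256 and 0.411. in naive cells Summed over the 2 transcript regions alone, RA+VitC over TGFβ iTreg was -0.79 (adjusted p = 0.55) and RA+VitC iTreg over naive cells -1.22 (adjusted p = 0.046).

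Dhrs3, the reductase that turns retinaldehyde back into retinol, was higher in RA+VitC iTreg than in all other groups. Its 6 regions summed to 89.1 and 80.6 CPM in RA+VitC iTreg, 34 and 50.5 in TGFβ iTreg, 64.5 and 63.5 in Treg, against 48.4 and 52.5. in naive cells Both RA+VitC libraries lay above every other library, and TGFβ iTreg overlapped naive cells. The log2 fold change was 0.98 over TGFβ iTreg (SE 0.13, adjusted p = 1.6e-09), 0.41 over Treg (SE 0.09, adjusted p = 4.5e-05) and 0.75 over naive cells (SE 0.09, adjusted p = 2.1e-12), while TGFβ iTreg over naive cells was -0.23 (SE 0.14, adjusted p = 0.17, and -0.57 at adjusted p = 0.02 without its 3-5 library). The inputs held 42.6 to 55.3 CPM. RA+VitC over TGFβ iTreg kept its call without any 1 of the cultured libraries (0.75 to 1.32).

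A single region of 13134 bp within introns of Dhrs3, where the table also marks an exon that it gives to no gene (chr4:144484369-144497502) held 74.8% of the gene's reads. It had 71.8 and 65.5 CPM in RA+VitC iTreg, 19.7 and 39.9 in TGFβ iTreg, 45.6 and 46.2 in Treg, against 33.7 and 34.8. in naive cells RA+VitC iTreg was highest and the TGFβ libraries lay on both sides of naive cells. The log2 was 1.16 over TGFβ iTreg (SE 0.16, adjusted p = 4.7e-11), 2.24-fold, and ran from 0.81 without the 3-20 library of TGFβ iTreg to 1.86 without its 3-5 library. The promoter region (chr4:144480755-144482135) had 9.38 and 8.97 CPM in RA+VitC iTreg, 5.36 and 5.99 in TGFβ iTreg, 8.18 and 7.8 in Treg, against 8.21 and 9.97 in naive cells (log2 0.68 over TGFβ iTreg, SE 0.36, adjusted p = 0.3). There TGFβ iTreg was below all other libraries, as at the Rxra promoter. Without the large region the sum had a log2 of 0.66 (SE 0.27, adjusted p = 0.077).

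Cyp26b1, which breaks down retinoic acid, had 3 small regions in its name, all downstream of its start and 2 of them intergenic. They summed to 11.9 and 7.79 CPM in RA+VitC iTreg, 5.14 and 2.6 in TGFβ iTreg, 4.98 and 4.57 in Treg, against 5.46 and 4.15. in naive cells RA+VitC iTreg was highest and the other 3 groups overlap. The log2 fold change was 1.4 over TGFβ iTreg (SE 0.42, adjusted p = 0.0074), 1.05 over Treg (SE 0.27, adjusted p = 0.00054) and 1.06 over naive cells (SE 0.27, adjusted p = 0.00035). The first rests on 41 and 26 reads against 8 and 5, and was 1.06 (adjusted p = 0.15) without the 3-20 library of RA+VitC iTreg and 0.94 (adjusted p = 0.23) without the 3-5 library of TGFβ iTreg. Without its own 3-20 library RA+VitC iTreg was also not called against Treg (0.71, adjusted p = 0.12) or naive cells (0.72, adjusted p = 0.1). Of its regions the one with the most reads (chr6:84509241-84509699) had 4.98 and 5.68 CPM in RA+VitC iTreg and 2.38 and 1.5 in TGFβ iTreg (log2 1.48, SE 0.55, adjusted p = 0.082), and none was called in that comparison.

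Upstream of Cyp26b1 lie 29 further regions whose nearest start is that of Cyp26b1 but whose nearest transcript is Exoc6b, a gene of the exocyst complex that runs on into the same interval. The regions lie at -16438 to -213652 bp from the Cyp26b1 start, and most of them are within the Exoc6b transcript. These were looked at after their values were seen. Together they held 216 and 179 CPM in RA+VitC iTreg, 87.6 and 91.3 in TGFβ iTreg, 61.5 and 60.4 in Treg, against 47.2 and 54.1. in naive cells All RA+VitC libraries stood above all others, and the inputs had 99.1 to 118 CPM. Of the 25 tested, 10 were higher in RA+VitC than in TGFβ iTreg and 0 lower, with a median log2 of 1.49, and 5 to 7 were higher when any 1 of the cultured libraries was left out. Over all tested regions 4.60% were higher and 1.98% lower in the main fit. The filter passes a region that is high in a single group, so regions high only in RA+VitC iTreg enter the 25. The region at chr6:84595383-84595630 had 11 and 16 reads in RA+VitC iTreg and 1 in each TGFβ library. The count and median can therefore lean towards higher by construction. Without the filter 10 of 29 were higher and 0 lower, and at equal depth 5 of 6 were higher and 0 lower. Of the 25, DESeq2 gave 5 higher, limma 14, library size scaling 6 with 1 lower, and the fit with inputs as background 1. Over all 135412 regions DESeq2 gave 3326 higher and 1085 lower, limma 6344 and 5301, and library size scaling 3515 and 4627. The main fit gave 6227 and 2682. The other 29 regions of Exoc6b had 4 higher and 0 lower of 25 tested, with a median of 0.43. Their groups stood in the same order, with 119 and 103 CPM in RA+VitC iTreg and 70.9 and 77.8 in TGFβ iTreg. Treg had 48.7 and 44.8 there and naive cells 34.1 and 36.2. The sum over all Exoc6b regions had a log2 of 0.82 over TGFβ iTreg (SE 0.08, adjusted p = 7.9e-17 in edgeR's test). Summed by nearest start, Cyp26b1 had 236 and 195 CPM in RA+VitC iTreg, 104 and 102 in TGFβ iTreg, 72.5 and 70.4 in Treg, against 56.7 and 62.6 in naive cells, a log2 of 1.07 over TGFβ iTreg (SE 0.09, adjusted p = 3.9e-25). By that assignment TGFβ iTreg also exceeded naive cells by 0.78 (SE 0.1, adjusted p = 3.5e-12), whereas the 3 regions in its name gave -0.34 (SE 0.44, adjusted p = 0.57).

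**Figure D4:**
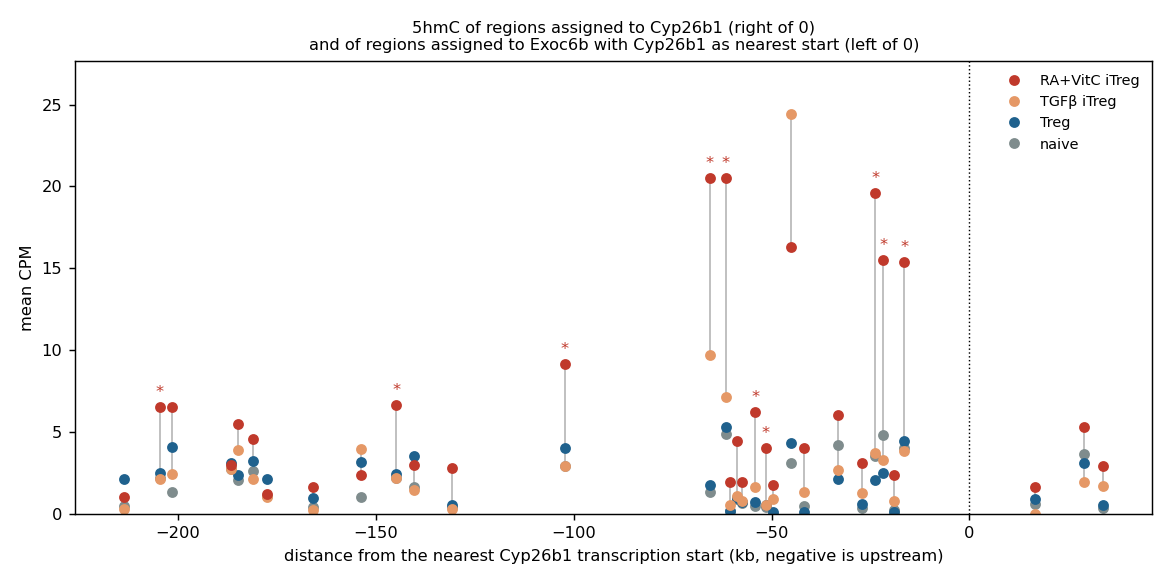
Mean CPM of the 3 regions assigned to Cyp26b1, right of 0, and of the 29 regions assigned to Exoc6b with Cyp26b1 as nearest start, left of 0, against the distance from that start in kb. Points are group means of 2 libraries, grey lines join RA+VitC and TGFβ iTreg, and asterisks mark the 10 regions higher in RA+VitC iTreg. The tallest point is TGFβ iTreg, at 20.9 and 27.9 CPM in its libraries, in a region with a log2 of -0.6 (adjusted p = 0.076).

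Beside other members too, regions were assigned to a neighbour, and none was called between the iTreg groups. The values were log2 -0.13 (adjusted p = 0.62) before the Rara start in Cdc6, 0.26 (adjusted p = 0.17) in Itgb7 next to Rarg, and 0.26 (adjusted p = 0.68) in Slc39a7 next to Rxrb.

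Tgm2 encodes tissue transglutaminase and is a long-known target of retinoic acid. It had more 5hmC in both cultured groups than in the sorted ones, and more in RA+VitC than in TGFβ iTreg. Its 11 regions summed to 190 and 172 CPM in RA+VitC iTreg, 139 and 151 in TGFβ iTreg, 98.4 and 95.6 in Treg, against 80.2 and 81.2. in naive cells None of the 4 groups overlaps another. RA+VitC over TGFβ iTreg gave a log2 fold change of 0.31 (SE 0.09, adjusted p = 0.0033), 1.24-fold, that of RA+VitC iTreg over naive cells 1.17 (SE 0.07, adjusted p = 3.2e-32), of TGFβ iTreg over naive cells 0.85 (SE 0.09, adjusted p = 1.2e-15) and of Treg over naive cells 0.26 (SE 0.07, adjusted p = 0.00059). The first was 0.24 (adjusted p = 0.09) without the 3-20 library of RA+VitC iTreg, 0.26 (adjusted p = 0.066) without that of TGFβ iTreg and 0.21 (adjusted p = 0.062) with library size scaling, and the inputs held 56.5 to 88.5 CPM.

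The called Tgm2 regions were all intergenic, 2 upstream of its start and 1 beyond its 3′ end. At -5551 bp (chr2:157977680-157979439) there were 15.5 and 13.8 CPM in RA+VitC iTreg, 5.36 and 8.48 in TGFβ iTreg, 8.31 and 10 in Treg, against 5.26 and 8.12 in naive cells, a log2 of 1.05 over TGFβ iTreg (SE 0.31, adjusted p = 0.015). At -8036 bp (chr2:157980165-157983021) there were 33.7 and 32.6 CPM in RA+VitC iTreg, 20.9 and 20 in TGFβ iTreg, 17.3 and 14.9 in Treg, against 12.2 and 13.6 in naive cells, a log2 of 0.7 (SE 0.2, adjusted p = 0.01). In both RA+VitC iTreg stood above all other libraries. The region beyond the 3′ end (chr2:157930780-157932136) had 12 and 8.97 CPM in RA+VitC iTreg, 2.98 and 4.49 in TGFβ iTreg, 2.56 and 2.83 in Treg, against 4.23 and 3.29 in naive cells, a log2 of 1.46 (SE 0.39, adjusted p = 0.0058). Without the 3-20 library of either cultured group none of the 3 was called, with adjusted p of 0.06 to 0.29, and the region at -8036 bp also lost its call without the 3-5 library of TGFβ iTreg (0.72, adjusted p = 0.11). With library size scaling the upstream regions had adjusted p of 0.074 and 0.1.

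The largest Tgm2 region, 11414 bp upstream that held 51% of the reads (chr2:157984281-157995694), had 86.4 and 81 CPM in RA+VitC iTreg, 70.3 and 79.8 in TGFβ iTreg, 50.9 and 46.8 in Treg, against 40.6 and 40.5. in naive cells The cultured groups were both above the sorted ones and differed from each other by 0.15 (SE 0.12, adjusted p = 0.58). The region of 2536 bp beyond the 3′ end (chr2:157933585-157936120) showed the same order more steeply, with 29.6 and 26.6 CPM in RA+VitC iTreg, 23.8 and 23.9 in TGFβ iTreg, 7.54 and 10.3 in Treg, against 5.51 and 4.11. in naive cells There RA+VitC iTreg exceeded naive cells by 2.56 (SE 0.19, adjusted p = 4.6e-39) and TGFβ iTreg exceeded them by 2.33 (SE 0.24, adjusted p = 1.9e-20). No region assigned to Tgm2 was annotated with its promoter, and the 5 regions that overlap the transcript gave a log2 of 0.59 over TGFβ iTreg (SE 0.4, adjusted p = 0.32).

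**Figure D5:**
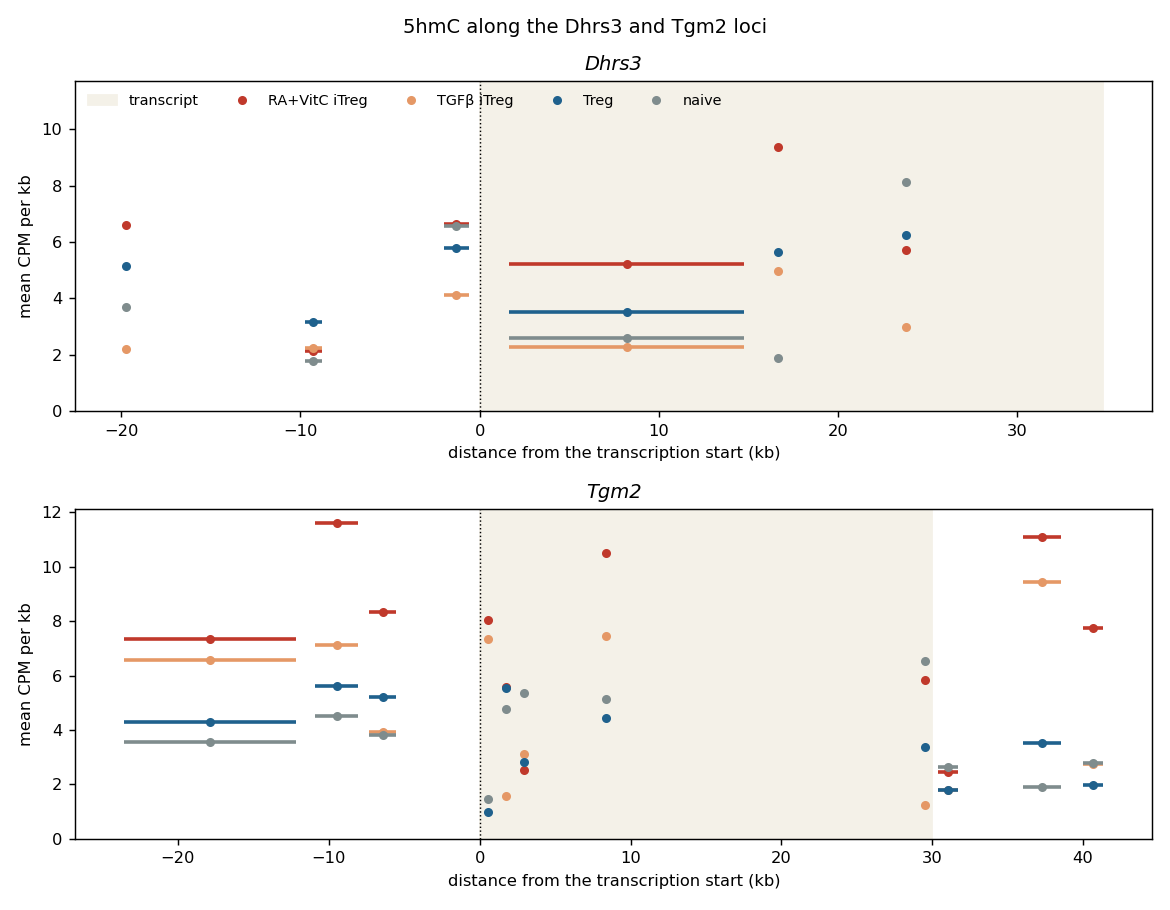
Mean CPM per kb of the 6 regions assigned to Dhrs3 and the 11 assigned to Tgm2 against the distance from each gene's transcription start in kb, with the transcript shaded. Points are group means of 2 libraries and horizontal bars show a region's width. RA+VitC iTreg lies above the other groups over the 13134 bp region of Dhrs3, and over the wide regions to the left of the Tgm2 start.

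Against naive cells, 6 of the 9 gene sums were called in RA+VitC iTreg, 4 in TGFβ iTreg and 4 in Treg, where 55.8%, 41.6% and 39.2% of all genes were. Against Treg, 7 were called in RA+VitC iTreg and 4 in TGFβ iTreg, where 49.7% and 35.8% of all genes were. Of 57 tested regions, 23 were called in RA+VitC iTreg against naive cells, 24 in TGFβ iTreg and 17 in Treg, against 37.8%, 21.3% and 23.1% of all tested regions. The 3 comparisons share the naive libraries. Without the 3-20 library of RA+VitC iTreg its count was 15, and without the 3-5 library of TGFβ iTreg that count was 12. Rxra gave 9 higher and 3 lower regions of the 24 in TGFβ iTreg. Its 315 bp intron region (chr2:27568191-27568505) had log2 values of 3 in RA+VitC iTreg and 3.76 in TGFβ iTreg over naive cells, with 5.57 and 6.58 CPM in RA+VitC iTreg, 8.94 and 11.5 in TGFβ iTreg, 1.15 and 1.89 in Treg, against 0.641 and 0.822. in naive cells

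The order of the 4 groups differed from gene to gene. RA+VitC iTreg was highest for Dhrs3, Cyp26b1 and Tgm2, TGFβ iTreg was highest for Rxra, and Treg was highest for Rarg. For Dhrs3 the next group was Treg, called higher than TGFβ iTreg and naive cells, whose libraries overlap. For Rarg the order below Treg was TGFβ iTreg, RA+VitC iTreg and naive cells, with the steps on either side of RA+VitC iTreg lost under the alternatives named above. For Aldh1a2 neither the upper pair, TGFβ iTreg and Treg (log2 0.33, SE 0.21, adjusted p = 0.24), nor the lower pair, RA+VitC iTreg and naive cells (0.47, SE 0.27, adjusted p = 0.13), differed beyond its spread. The genes whose log2 CPM followed a member most closely over the 8 pull-downs, among 8178 candidates, were Plac8 and Ptprj for Tgm2 (Pearson r 0.997 each), Kif13b and Tomm20 for Dhrs3 (0.987 and 0.982), Cep170b and S1pr1 for Rxra (0.985 and 0.979), Itgb8 and Nectin2 for Rarg (0.977 and 0.976), Smim15 and Sf1 for Rxrb (0.972 and 0.971) and Ehmt2 and Gpi1 for Rara (0.968 and 0.967). These are the highest of many values over libraries that share their groups and differ in depth.

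Among 64 other genes of the pathway, 52 had regions in the table and 50 were tested, of which 13 were higher and 4 lower in RA+VitC than in TGFβ iTreg, with a median log2 of 0.04 against 0 for all genes. Over all genes tested 12.4% were higher and 10.7% lower. By role, 7 of 16 tested targets of retinoic acid were higher and 1 lower, 4 of 12 receptors and coregulators were higher and 1 lower, 1 of 17 synthesis genes was higher and 1 lower, 1 of 3 genes of storage and transport was higher and 1 lower, and 0 of 2 breakdown genes passed. Nrip1, a corepressor that binds liganded receptors, had 2270 and 2110 CPM in RA+VitC iTreg, 961 and 918 in TGFβ iTreg, 1240 and 1260 in Treg, against 1060 and 1080 in naive cells (log2 1.22 over TGFβ iTreg, SE 0.05, adjusted p = 2.5e-47). RA+VitC iTreg was above every other library. The coactivator gene Ncoa3 (0.81, SE 0.05) and the vitamin D receptor gene Vdr (1.04, SE 0.12) were also higher. So were the gut homing genes Itga4, the α4 integrin (0.49, SE 0.06), and Ccr9, a chemokine receptor (0.51, SE 0.07), while Itgb7, the β7 chain that pairs with α4, was not called (0.17, SE 0.1, adjusted p = 0.23). Higher as well was Foxp3, the Treg lineage factor (1.23, SE 0.19).

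Foxp3 had 44.9 and 42.9 CPM in RA+VitC iTreg, 15.4 and 21.3 in TGFβ iTreg, 36.6 and 41.1 in Treg, against 14.9 and 17.6 in naive cells, so that RA+VitC iTreg stood beside Treg and TGFβ iTreg beside naive cells. The genes lower in RA+VitC iTreg were Ep300, a histone acetyltransferase and coactivator (-0.43, SE 0.08), Fabp5, which carries retinoic acid to another nuclear receptor (-0.5, SE 0.11), Zbtb16, a transcription factor of innate-like T cells (-0.57, SE 0.17), and Rdh9, a retinol dehydrogenase with 0.291 and 0.599 CPM in RA+VitC iTreg and 3.85 and 2.08 in TGFβ iTreg (-2.64, SE 0.94, adjusted p = 0.028). Leaving out any 1 of the 4 cultured libraries kept the call for all of these apart from Zbtb16, called in 2 of the 4 fits, and Rdh9, called in 1. The genes counted as higher but not named are not covered by that statement. With 1 library left out, Itgae ran from 0.18 to 0.36, Tgif1 from 0.22 to 0.46, Bco2 from 0.32 to 0.45 and Stra6 from 0.38 to 0.68. Ncoa2 ran from 0.25 to 0.27, Asb2 from 0.46 to 0.67 and Cd38 from 0.53 to 0.78. The counts of higher genes thus include small differences that vary with the library left out. The pathway genes were listed with results of the same data known, so their count is a description.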

How the data were processed

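The authors deposited raw counts of reads for 16 libraries, not scaled. Per the file headers each row is an mm9 region from a union of broad peaks (MACS2, q 0.01), annotated with a transcript and a start. The submitters' processing notes name MACS2 (2.1.0.20151222), SAMtools (1.7), Trim Galore (0.4.2) and bcl2fastq (2.20.0.442). For the aligner, the counter and the pooling of peaks, the sources used here give nothing, and a union drawn from deeper libraries can favour their regions.

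The 8 pull-downs were fitted together in edgeR 4.0.16 (R 4.3.3), with a group term, TMM scaling and filterByExpr at a minimum count of 10. The quasi-likelihood F test was used, with Benjamini-Hochberg adjustment over all features and a threshold of 0.05. The design leaves 4 residual degrees of freedom per feature, and the test adds more by sharing the spread over all features. P-values and intervals therefore rest on that shared spread as well as on a feature's own libraries. Gene sums add all regions of a symbol, and the 8 inputs were fitted alike. CPM use TMM-scaled library sizes for pull-downs and plain totals for inputs. Alternatives used DESeq2 1.42.0, limma 3.58.1, other filters, equal depth, an input interaction, fewer libraries and other region assignments. Regions named are, per member, that with the lowest p, that with the most reads, those with a promoter or 5′ UTR and up to 3 called ones, and those named beyond these were chosen after their values were seen. Replicate pull-downs varied 1.12 to 1.23 times counting error (chi-square over degrees of freedom). Members and gene lists were chosen with earlier results of these data known.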

Additional observations from a re-analysis of the deposited data

Results flagged for a closer look

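Signal outside the regions assigned to the 9 genes appeared upstream of Cyp26b1. There 10 regions assigned to Exoc6b, whose nearest start is that of Cyp26b1, were higher in RA+VitC iTreg than in TGFβ iTreg. From the nearest to the farthest from that start their log2 fold changes were 2.01, 2.25, 2.37, 2.83, 1.92, 1.49, 1.11, 1.61, 1.61 and 1.57. The value of 2.83 rests on 1 read in each TGFβ library and that of 1.92 on 3 in each. For the former these are 0.596 and 0.499 CPM, below the 1.79 and 1.5 CPM that a count of 0 allows. With the inputs as background, 1 of the 25 tested regions was called. The rest of Exoc6b showed the same order of groups, with 4 higher and 0 lower of 25 tested in the main fit. The difference was therefore not confined to the regions nearest the Cyp26b1 start. The third of the 10 regions (chr6:84567683-84568892, mm9), at -23780 bp from the start and over the 3′ end of Exoc6b, had 24.6 and 14.6 CPM in RA+VitC iTreg, 2.98 and 4.49 in TGFβ iTreg, 1.41 and 2.72 in Treg, against 2.95 and 4.11 in naive cells (SE 0.34, adjusted p = 9.7e-10 in edgeR's test).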

How the results depend on the processing

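The number of member regions higher in RA+VitC than in TGFβ iTreg (5) was 1 with DESeq2, 3 with library size scaling, 2 with a mean of at least 50 reads, 2 at equal depth and 1 in the input interaction, and that of lower regions (4) was 0 in the interaction. Higher gene sums (3) numbered 1 in the interaction, 1 with only regions that overlap the transcript and 1 without the region with the most reads, and lower ones (3) 0 and 1 in the first pair. Leaving out 1 library gave 1 to 5 higher and 0 to 5 lower regions and 1 to 3 higher and 0 to 3 lower gene sums, with 0 lower in both without the 3-5 library of TGFβ iTreg. RA+VitC iTreg against naive cells had 23 called regions and 15 with DESeq2, 12 at 50 reads, 7 at equal depth, 9 in the interaction and 15 to 21 without 1 library. TGFβ iTreg against naive cells had 24, and 14, 10, 12, 5 and 12 to 21 in the same order, and Treg against naive cells 17, and 9, 11, 4, 5 and 12 to 15, with 11 by limma. Gene sums against naive cells were 3 with DESeq2 and 2 at equal depth in RA+VitC iTreg (6), 2 with transcript regions in TGFβ iTreg (4), and 2 each at equal depth, in the interaction and with transcript regions in Treg (4). Against Treg the interaction gave 3 in RA+VitC iTreg (7), and 2 in TGFβ iTreg (4), as did transcript regions. Fewer genes, reads or regions enter several of these by construction, and the cause was not tested otherwise. With DESeq2 calls over all 135412 regions fell too, so these counts do not describe the members alone. RA+VitC against TGFβ iTreg had 3326 higher and 1085 lower over all, in place of 6227 and 2682. Against naive cells RA+VitC iTreg had 20934 and 7995, in place of 29718 and 21405. Treg had 5647 and 2364, and 5925 and 2221 by limma, in place of 17611 and 13710.

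Values that reversed were Rara in RA+VitC iTreg against naive cells (0, then -0.15 with library size and -0.17 without its largest region), Aldh1a2 on transcript regions (-1.22 in RA+VitC iTreg and -0.43 in TGFβ iTreg, against naive cells), Tgm2 against naive cells (-0.08 in TGFβ iTreg and -0.28 in Treg on transcript regions, -0.01 in Treg in the interaction), and Cyp26b1 by nearest start in TGFβ iTreg (0.78 against naive cells and 0.53 against Treg, an alternative chosen after seeing the data). A further 84 sign changes concerned values called in neither fit. Correlations of the deviations of same-numbered libraries were 0.0227 and -0.0146 over regions, so the numbers were not used as pairs, and what they stand for is not stated. With a replicate block, RA+VitC against TGFβ iTreg had 5 higher and 3 lower member regions and 3 higher and 3 lower gene sums. The intergenic Aldh1a2 region was then not called (-1.98, adjusted p = 0.057). The suffixes of iTreg and the numbers of sorted cells are separate labels. Blocked values of iTreg against sorted cells therefore depend on which library is the reference, and do not test whether calls hold. They gave 15 called regions in TGFβ iTreg against naive cells. In RA+VitC iTreg against naive cells and Treg they were 0.11 and 0.14 for Rxra and -0.3 each for Rxrb, not called. Depth limits Rarb, Aldh1a2 and Cyp26b1 most.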

Other observations

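In the inputs, which carry no pull-down, the 13134 bp region of Dhrs3 had 38.9 and 36.9 CPM in RA+VitC iTreg, 38.8 and 39.8 in TGFβ iTreg, 35.2 and 45.5 in Treg, against 31.9 and 41.4. in naive cells The pull-downs had 71.8 and 65.5 CPM in RA+VitC iTreg, 19.7 and 39.9 in TGFβ iTreg, 45.6 and 46.2 in Treg, against 33.7 and 34.8 in naive cells, so that RA+VitC iTreg stood above every input while TGFβ iTreg and naive cells lay near or below theirs. Pull-down and input CPM are scaled differently.

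Within a label suffix, RA+VitC over TGFβ iTreg had the same sign in 3-20 and 3-5 for 7 of the 9 genes, among them Dhrs3 (1.38 and 0.67), Cyp26b1 (1.16 and 1.46), Aldh1a2 (-0.73 and -1.9) and Rarg (-0.17 and -0.6), all on the log2 scale. Rara (0.27 and -0.05) and Rxrb (0.18 and -0.24) changed sign. For Dhrs3, Cyp26b1, Tgm2, Rarg, Rxra and Aldh1a2 both RA+VitC libraries lay on the same side of both TGFβ libraries. Any pairing of libraries gives these genes the same sign, so it is no separate evidence for their calls.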
